A study of Mus musculus with 12 samples.

Results

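The genes described are the 5 NF-kappaB subunit genes of the mouse (Nfkb1, Nfkb2, Rel, Rela and Relb) and 5 of the genes known as NF-kappaB feedback or response targets (Nfkbia, Nfkbie, Tnfaip3, Birc3 and Icam1). They were chosen by symbol, and all 10 were found among the 27179 genes of the count table. Their RNA was measured in MC38-idAdpgkG, a C57BL/6 colon carcinoma cell line that stably carries an inducible, degradable construct of Adpgk(R304M), a mutated glucokinase used as a model neoantigen, fused to turboGFP. The cells of every group, controls included, received 20 ng/mL mouse IFNg, the cytokine interferon-gamma. The control group had IFNg alone for 51 h, and the doxycycline group had IFNg with 1 µg/mL doxycycline, the inducer of the construct, for 51 h. The dTAG13 group had IFNg for 48 h and then 1 µM dTAG-13, a small-molecule degrader of tagged proteins, for 3 h more. The combined group had IFNg and doxycycline for 48 h before the same 3 h of dTAG-13. Each group was 1 culture measured in 3 technical libraries, so every SD, SE and p-value covers the spread between libraries of 1 culture, and a treatment cannot be told apart from the culture that received it. No promoter of the construct and no clone number was given in the sources used here.

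NF-kappaB transcription factors are dimers of 5 related proteins that bind kappaB sites in DNA. In resting cells most dimers are held in the cytoplasm by IkappaB proteins, and signals from receptors of the TNF, interleukin-1 and Toll-like families lead to the destruction of IkappaB and to nuclear entry of the dimers. Several NF-kappaB target genes encode brakes on the pathway, among them the IkappaB protein of Nfkbia and the ubiquitin-editing enzyme of Tnfaip3, which makes the pathway a well-known example of negative feedback.

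The promoters of 5 members are shown first, since kappaB sites near the start of transcription are a textbook feature of NF-kappaB feedback targets. The 10-base kappaB consensus was searched on both strands of RefSeq promoter windows of GRCm38.p6, which run from 250 bases before to 50 bases after a start. A window was given for 8 members, and at least 1 match was found for 5 of them, namely Nfkb2, Rel, Nfkbia, Nfkbie and Tnfaip3. Birc3, Icam1 and Rela had a window with no match, and Nfkb1 and Relb had no window. Of all 32851 windows, 8.46% held a match, as did 12.3% of the 9754 tested genes with a window. The lines below give the surroundings of 1 match for each gene, and of a second for Nfkb2, in the direction of transcription, with the matched bases in capitals; a run of 11 capitals holds overlapping matches on both strands.
Nfkb2, plus strand, chr19:46304689-46304717: gatcgtcacGGGAATTCCCCccctcgggg
Nfkb2, plus strand, chr19:46305695-46305724: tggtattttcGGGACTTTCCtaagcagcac
Rel, minus strand, chr11:23771042-23771070: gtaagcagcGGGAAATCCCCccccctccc
Nfkbia, minus strand, chr12:55492657-55492686: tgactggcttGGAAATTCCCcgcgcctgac
Nfkbie, plus strand, chr17:45555584-45555613: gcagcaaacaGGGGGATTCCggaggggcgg
Tnfaip3, minus strand, chr10:19015403-19015432: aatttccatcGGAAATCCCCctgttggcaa
The matches lay 39 bases before a start of Nfkb2, 92 before that of Rel, 29 before that of Nfkbia, 106 before that of Nfkbie and 12 before that of Tnfaip3, and the other Nfkb2 match began 10 bases after a second start of that gene. A match describes the letters of a window and not binding, which was not measured in these files.

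The libraries held 22165538 to 32809573 counts. Adpgk, the gene of the construct, stood at 157.6 to 162 CPM (normalised read count, scaled to library size) in control libraries and 177 to 185 CPM in dTAG13 libraries, and at 1316 to 1355 CPM with doxycycline and 1351 to 1379 CPM with doxycycline and dTAG-13. These counts hold RNA from the endogenous gene as well. The labelled tissue was checked with 12 markers of colon epithelium, of which none reached 1 CPM in any library, and Epcam, Cdx2 and Muc2 were at 0 throughout; their summed level ran from 0.282 to 0.674 CPM in control libraries and 0.723 to 0.771 CPM in dTAG13 libraries. Of 9 mesenchymal markers 6 passed the filter on low counts, with summed levels of 2597 to 2674 CPM in control, 2373 to 2403 CPM with doxycycline, 2001 to 2022 CPM with dTAG-13 and 1721 to 1779 CPM with both. Most of the control sum was Vim (mean 1502 CPM) and Fn1 (774 CPM), while Col1a1, Col1a2 and Thy1 stayed under 1 CPM. Single markers moved in both directions: with doxycycline the mean of Vim was 1296 CPM, and that of Pdgfra went from 157 to 190 CPM. The 8 leukocyte markers summed to 1.48 to 3.16 CPM over all libraries, with Cd3e at 0, and the 5 endothelial markers to 1.96 to 4.18 CPM. In bulk RNA, fewer cells of a type and less RNA per cell cannot be told apart.

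Per length, Nfkb2 was the most abundant member and Icam1 the least. In control cells the levels per kilobase of transcript (RPKM, mean ± SD, n = 3) were 109.9 ± 2.6 for Nfkb2, 50.3 ± 0.80 for Rela, 44.3 ± 1.7 for Nfkbia and 38.9 ± 0.43 for Nfkb1. Relb followed at 14.5 ± 0.47, Birc3 at 7.27 ± 0.33 and Nfkbie at 2.46 ± 0.25. At the low end Rel stood at 0.607 ± 0.13, Tnfaip3 at 0.495 ± 0.027 and Icam1 at 0.0746 ± 0.054 RPKM. Neighbours in this order did not overlap between libraries, with the exception of Rel and Tnfaip3, which overlapped in every group. With doxycycline the order was the same, but Nfkbia (39.8 ± 1.5) and Nfkb1 (38.6 ± 0.92) overlapped. In both groups with dTAG-13, Nfkbia lay above Rela, at 44.4 ± 1.6 against 38.1 ± 0.90 RPKM with dTAG-13 alone and 42.7 ± 1.1 against 36.5 ± 1.3 with both compounds. Over all 12 libraries, the RPKM of Nfkb2 exceeded that of 93.0% of the 11745 tested genes with a known length, that of Rela 83.05%, and that of Rel 9.64%.

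**Figure D1:**
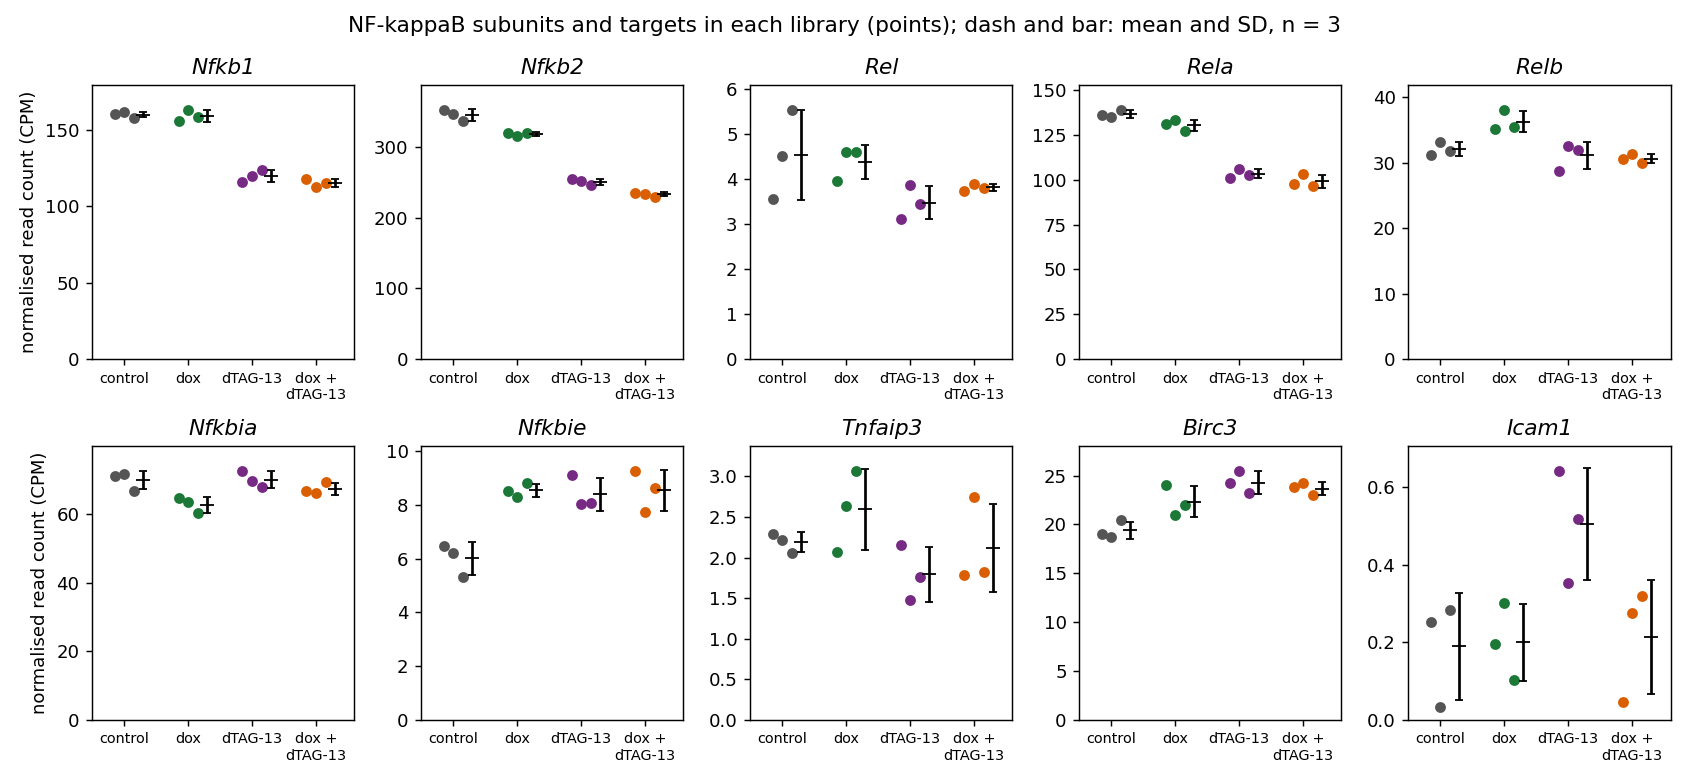
Normalised read count (CPM, y axis, from 0) of the 10 members in each of the 12 libraries, by group on the x axis; points are libraries, and the dash and bar beside them are the mean and SD of 3. Nfkb1, Nfkb2 and Rela are lower in all 6 libraries with dTAG-13 than in the 6 without it, and Nfkbie is lowest in the 3 control libraries.

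The first comparison was dTAG-13 against control, the degrader in cells in which the construct had not been induced. RNA of the subunit genes Nfkb1, Nfkb2 and Rela fell by 24.3 to 27.4% after 3 h of dTAG-13, and RNA of Nfkbie and Birc3 rose. Of the 10 members 3 were called higher and 4 lower, at an adjusted p under 0.05 in edgeR's quasi-likelihood test. The 3 higher include Icam1, which passed the filter on low counts through the dTAG13 libraries. With a filter of 1 CPM in 3 libraries, which left Icam1 out, 2 were higher and 4 lower. The background was wide, since 62.1% of all 12910 genes tested were called, 30.0% higher and 32.1% lower, so the number of members called was near that of genes in general. The median log2 fold change was -0.17 over the members and 0.02 over all genes. Scaled by total counts alone, the members split into 4 higher and 3 lower, and the share of higher genes among all called genes moved from 48.3% to 62.8%.

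Nfkb1 encodes p105, the precursor of the p50 subunit, and lies on chromosome 3 at 135584655 to 135691969 of GRCm38.p6. Its level was 161, 162 and 158 CPM in the control libraries and 116, 119.8 and 124 CPM in the dTAG13 libraries. Every dTAG13 library was below every control library. The log2 fold change was -0.42 ± 0.028 (SE), with an edgeR adjusted p of 3.27e-16. After correction for transcript length and GC content the difference was -0.26 (adjusted p 1.53e-10), smaller by over 1.5 times.

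Nfkb2 encodes p100, the precursor of p52 and the central protein of the non-canonical pathway (chromosome 19, 46300994 to 46312400). Its level was 352, 346 and 336.5 CPM in control and 255, 251 and 246 CPM with dTAG-13, again with no overlap. It fell by 0.46 on the log2 scale (SE 0.024, edgeR adjusted p 3.05e-20), and by 0.31 after the length and GC correction (adjusted p 7.72e-16). Nfkb2 overlaps Psd and the non-coding gene 4833438C02Rik in the annotation, and how shared reads were assigned is not given in the sources used here.

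Rela encodes p65, the main activating subunit of the canonical pathway (chromosome 19, 5637442 to 5648134). It had 136, 135 and 139 CPM in control and 101, 106 and 103 CPM with dTAG-13, so that the groups did not overlap. The fold change was -0.40 ± 0.030 on the log2 scale (edgeR adjusted p 5.58e-15), and -0.29 after the length and GC correction (adjusted p 2.1e-11).

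Rel encodes c-Rel, a subunit best known from lymphocytes (chromosome 11, 23736847 to 23770969), and was scarce. It had 3.55, 4.51 and 5.54 CPM in control and 3.12, 3.86 and 3.44 CPM with dTAG-13, and these ranges overlapped. It was called lower (log2 fold change -0.37 ± 0.14, edgeR adjusted p 0.0202), but the call did not hold when libraries were scaled by total counts alone (-0.28), with the length and GC correction (-0.23, adjusted p 0.149), without the third control library (-0.22) and without the first dTAG13 library (-0.30). Relb encodes a subunit that pairs mainly with p52 (chromosome 7, 19606217 to 19629438). Its 31.2, 33.2 and 31.8 CPM in control and 28.8, 32.5 and 32.0 CPM with dTAG-13 overlapped, and its log2 fold change of -0.04 (95% interval -0.15 to 0.06) did not pass the test.

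Among the inhibitors, Nfkbia encodes IkappaB-alpha, the classical feedback inhibitor (chromosome 12, 55489409 to 55492647). It had 71.2, 71.8 and 66.8 CPM in control and 72.7, 69.5 and 67.8 CPM with dTAG-13. The ranges overlapped, with a log2 fold change of 0.00 (95% interval -0.08 to 0.08, edgeR adjusted p 0.982). This value depended on the processing: it was -0.11 after the length and GC correction (adjusted p 0.00836) and 0.09 with scaling by library size only (adjusted p 0.0352), called in opposite directions. Genes in the same eighth of transcript length as Nfkbia had a median log2 fold change of 0.13.

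Nfkbie encodes IkappaB-epsilon, a second inhibitor that is also induced by NF-kappaB (chromosome 17, 45555700 to 45563169). It had 6.46, 6.22 and 5.32 CPM in control and 9.09, 8.01 and 8.06 CPM with dTAG-13. All 3 dTAG13 libraries were above all 3 controls, and Nfkbie rose by 0.48 ± 0.099 on the log2 scale (edgeR adjusted p 5.59e-05). Tnfaip3 encodes A20, an enzyme that edits ubiquitin chains and ends signalling (chromosome 10, 19000910 to 19015410). It had 2.29, 2.22 and 2.06 CPM in control and 2.15, 1.48 and 1.76 CPM with dTAG-13, overlapping ranges that did not pass the test (log2 fold change -0.29, 95% interval -0.69 to 0.11).

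Birc3 encodes cIAP2, a ubiquitin ligase of the TNF receptor complex that restrains the non-canonical pathway (chromosome 9, 7847468 to 7873205). It had 19.0, 18.8 and 20.4 CPM in control and 24.2, 25.5 and 23.2 CPM with dTAG-13, with no overlap. It rose by 0.33 ± 0.061 on the log2 scale (edgeR adjusted p 1.01e-05). Icam1 encodes an adhesion molecule for leukocyte integrins (chromosome 9, 21015940 to 21028814) and was close to the limit of detection. Its reads were 8, 1 and 8 in control and 20, 11 and 15 with dTAG-13. Scaled for library size the ratio of reads was 2.88, with a 95% interval of 1.62 to 5.36 that covers counting error only. It was called (edgeR log2 fold change 1.41 ± 0.51, adjusted p 0.0156), but it passed the filter on low counts through the dTAG13 libraries, in which it was high, so the call is given as a value only. The call was lost without the second control library (log2 fold change 0.90) and without the first dTAG13 library (1.19).

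The second comparison was the combined group against doxycycline, the same 3 h of dTAG-13 in induced cells. Nfkb1, Nfkb2 and Rela were again lower, by about the same amount, Relb was lower as well, and Nfkbie and Birc3 did not pass the test. Called members were 1 higher and 4 lower, beside 64.1% of all genes, of which 30.7% were higher and 33.4% lower. The median log2 fold change was -0.22 over the members and 0.00 over all genes. After the length and GC correction 0 members were higher and 4 lower, beside 24.4% and 28.7% of all genes. This comparison shares no library with dTAG-13 against control, but both come from the same fit over all 12 libraries, so the tests are not independent.

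Nfkb1 had 155.7, 163 and 158 CPM with doxycycline and 118, 113 and 115 CPM with both compounds. The log2 fold change was -0.47 ± 0.029 (edgeR adjusted p 1.52e-17), or -0.27 after the length and GC correction. Nfkb2 had 319, 315 and 319.6 CPM with doxycycline and 235, 234 and 229.8 CPM with both. Neither gene's ranges overlapped. Nfkb2 fell by 0.45 ± 0.024 (adjusted p 1.13e-19), or by 0.27 after the correction. Rela had 131, 133 and 127 CPM with doxycycline and 97.7, 103 and 96.6 CPM with both, a fold change of -0.40 ± 0.031 on the log2 scale (adjusted p 1.15e-14), or -0.26 after the correction. For these 3 genes, the dTAG-13 differences without and with doxycycline lay within 0.05 of each other, and the test of that difference gave adjusted p-values of 0.416 for Nfkb1, 0.848 for Nfkb2 and 0.974 for Rela. The intervals of the difference were -0.13 to 0.03 for Nfkb1, -0.06 to 0.08 for Nfkb2 and -0.09 to 0.09 for Rela. With library size scaling only, that of Nfkb1 was called (-0.12, against -0.05 with TMM; edgeR adjusted p 0.0266).

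Relb had 35.2, 38.1 and 35.5 CPM with doxycycline and 30.5, 31.3 and 30.0 CPM with both compounds, with no overlap. It fell by 0.25 ± 0.052 on the log2 scale (edgeR adjusted p 7.55e-05), and by 0.16 after the length and GC correction (adjusted p 0.0105). Rel, at 3.95, 4.60 and 4.59 CPM against 3.74, 3.89 and 3.80 CPM, was lower in all 3 libraries with both compounds but did not pass the test (log2 fold change -0.20, 95% interval -0.49 to 0.09).

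Nfkbia had 64.6, 63.6 and 60.2 CPM with doxycycline and 66.6, 66.1 and 69.4 CPM with both compounds. The ranges did not overlap and it was called higher (log2 fold change 0.10 ± 0.040, edgeR adjusted p 0.0223). The length and GC correction turned the direction (-0.06, adjusted p 0.16), and the call was lost without any 1 of 5 libraries: the second control (0.09), the second doxycycline (0.10), the third doxycycline (0.07), the third combined (0.08) and the second dTAG13 library (0.09). Nfkbie, at 8.51, 8.30 and 8.80 CPM against 9.27, 7.74 and 8.62 CPM, had a log2 fold change of 0.00 with a 95% interval of -0.20 to 0.19. Birc3, at 24.1, 21.0 and 22.0 CPM against 23.8, 24.2 and 23.0 CPM, had one of 0.08 with an interval of -0.04 to 0.20.

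Tnfaip3, at 2.07, 2.63 and 3.07 CPM against 1.78, 2.75 and 1.82 CPM, overlapped between the groups and did not pass the test (-0.29, 95% interval -0.68 to 0.10). It was called lower without the second combined library (-0.52, edgeR adjusted p 0.0326). Icam1 had 6, 9 and 3 reads with doxycycline and 1, 7 and 10 with both compounds, a ratio of 1.15 after scaling (0.565 to 2.34), so that no difference was detectable at this depth.

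**Figure D2:**
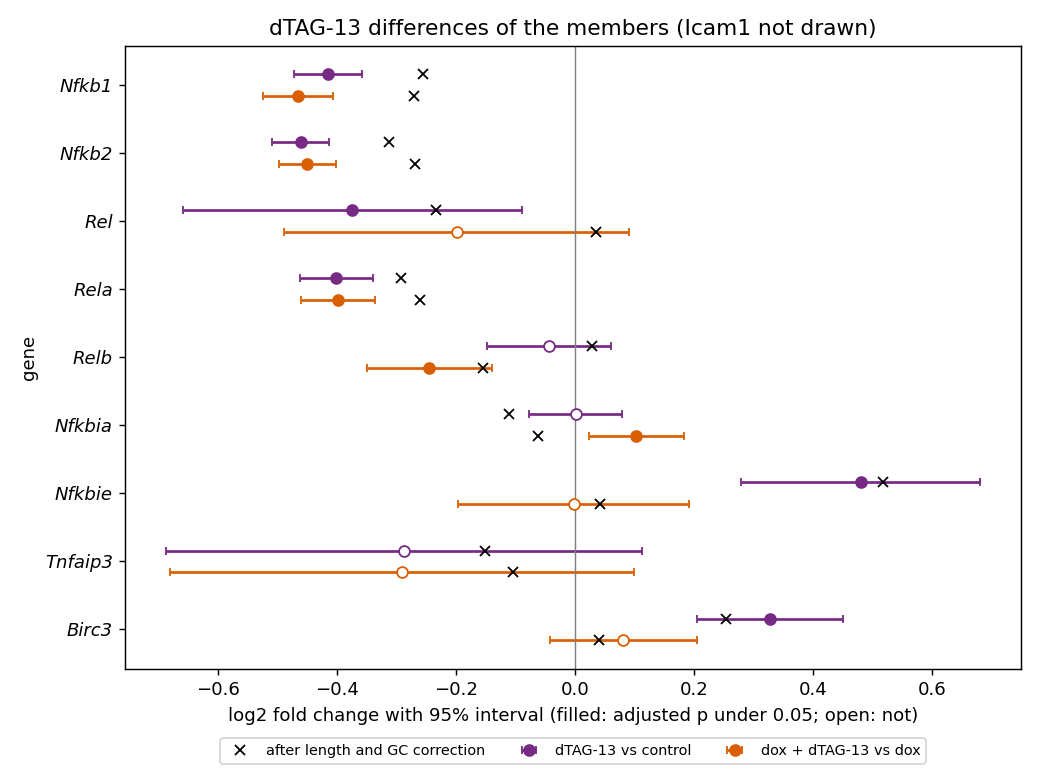
Log2 fold change (x axis) of 9 members, by gene on the y axis, for dTAG-13 with control as the base and for both compounds with doxycycline as the base, with 95% intervals; filled points passed the test and crosses are values after the length and GC correction. Nfkb1, Nfkb2 and Rela lie between -0.47 and -0.40 in both comparisons, and the crosses of these 3 genes lie nearer 0; Icam1, with 1 to 20 reads a library, is not drawn.

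The third comparison was doxycycline against control, which asks what differed with the inducer. All libraries came from cells that carry the construct. An effect of doxycycline itself therefore cannot be told apart from that of the construct. Nfkbie, Birc3 and Relb were higher and Nfkbia and Nfkb2 lower. These were 3 members called higher and 2 lower, beside 33.5% of all genes, of which 14.8% were higher and 18.7% lower. The share of higher genes among all called genes, 44.3%, was 61.3% with scaling by library size only and 34.2% after the length and GC correction; the members' split was 3 and 2 in the former case and 3 and 3 in the latter. The median log2 fold change was 0.04 over the members and -0.01 over all genes.

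Nfkbie had the largest difference of the called members, from 5.32 to 6.46 CPM in control libraries and from 8.30 to 8.80 CPM with doxycycline. It rose by 0.50 ± 0.099 on the log2 scale (edgeR adjusted p 8.42e-05), and all doxycycline libraries were above all controls. Birc3 rose from 19.4 ± 0.89 CPM (SD, n = 3) to 22.3 ± 1.6 CPM, by 0.21 ± 0.061 (adjusted p 0.0075), and the call was lost without the first doxycycline library (0.16). Relb, at 32.1 ± 1.0 CPM in control and 36.3 ± 1.6 CPM with doxycycline, rose by 0.18 ± 0.051 (adjusted p 0.00552). For all 3 genes the libraries of the groups did not overlap. This also held for Nfkbia and Nfkb2, and for Rela, a member that was not called. The share of all genes without such overlap is not given here.

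Nfkbia fell by 0.16 ± 0.039 on the log2 scale, from 69.9 ± 2.7 CPM (SD, n = 3) to 62.8 ± 2.3 CPM (edgeR adjusted p 0.00158). Nfkb2 fell by 0.12 ± 0.023, from 345 ± 8.1 CPM to 318 ± 2.4 CPM (adjusted p 0.000101). Rela was lower in all 3 doxycycline libraries, 131 ± 3.0 CPM against 137 ± 2.2 CPM, and did not pass (-0.06, adjusted p 0.0903), although it did after the length and GC correction (-0.07, adjusted p 0.0416). Nfkb1, with 159.1 ± 3.8 CPM against 160.0 ± 1.8 CPM, differed by -0.01 (95% interval -0.07 to 0.05). Rel, Tnfaip3 and Icam1 overlapped between the groups, with intervals of -0.32 to 0.23, -0.14 to 0.61 and -1.16 to 1.36.

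The fourth comparison, the combined group against dTAG13, asks the same of the inducer in cells that had the degrader. Nfkb2 was the only member called (-0.11 ± 0.024, edgeR adjusted p 0.00109), beside 20.4% of all genes, with 10.7% higher and 9.64% lower. When scaled by total counts alone, 3 members were called, all lower (Nfkb1 -0.09, Nfkb2 -0.14 and Rela -0.10), and the share of higher genes among all called genes moved from 52.7% to 30.3%. Nfkbie had 9.09, 8.01 and 8.06 CPM with dTAG-13 and 9.27, 7.74 and 8.62 CPM with both compounds, a log2 fold change of 0.02 (95% interval -0.17 to 0.22). Birc3 and Relb had log2 fold changes of -0.04 (-0.16 to 0.08) and -0.02 (-0.13 to 0.08). Icam1 had 46 reads in all with dTAG-13 and 18 with both, with no overlap of the libraries, and did not pass (adjusted p 0.11).

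**Figure D3:**
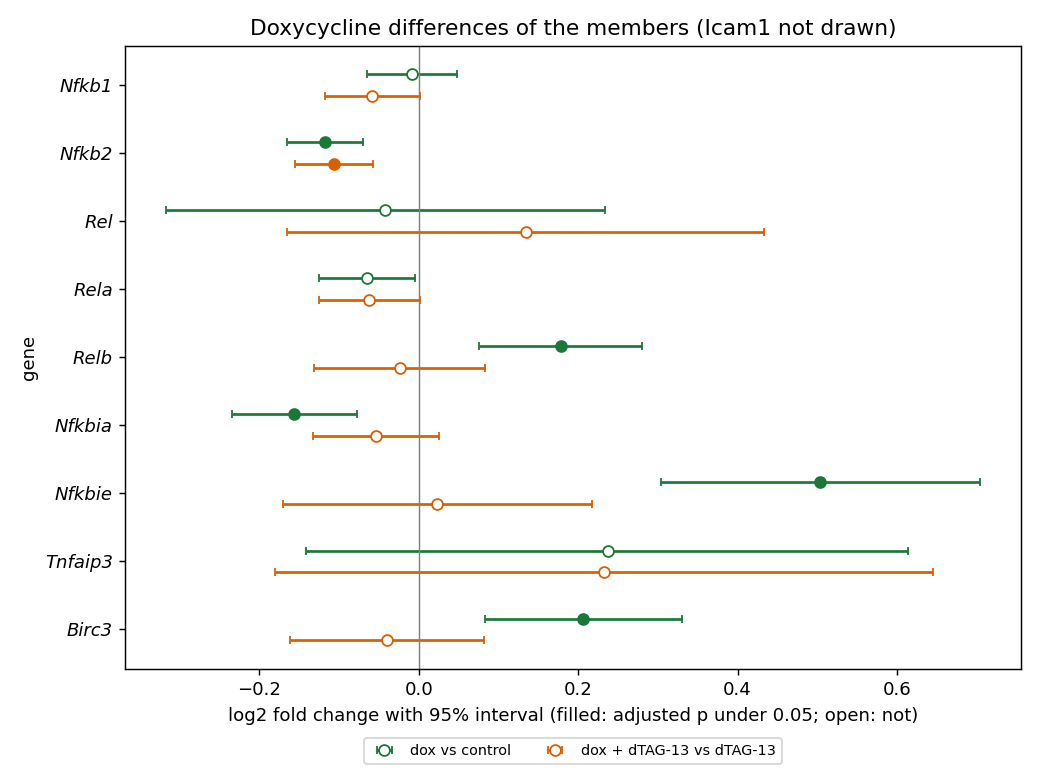
Log2 fold change (x axis) of 9 members, by gene on the y axis, for doxycycline against control and for doxycycline with dTAG-13 against dTAG-13, with 95% intervals; filled points passed the test. Relb, Nfkbie and Birc3 lie above 0 in the first comparison (0.18, 0.50 and 0.21) and near 0 in the second, and Nfkb2 lies at -0.12 and -0.11.

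Whether the dTAG-13 difference depended on doxycycline was tested as an interaction, the log2 difference with doxycycline minus that without. Nfkbie (-0.48 ± 0.14, edgeR adjusted p 0.00906), Birc3 (-0.25 ± 0.086, adjusted p 0.0329) and Relb (-0.20 ± 0.073, adjusted p 0.0414) passed, all with a negative sign. The background was 22.9% of all genes, 13.2% positive and 9.64% negative, and the share of positive values among all called genes moved from 57.8% to 25.2% with scaling by library size only and to 69.1% after the length and GC correction. For Nfkbie and Birc3 each compound alone was followed by a higher level than in control, and both together by a level close to that of either: Nfkbie stood at 6.00 ± 0.60 CPM in control, 8.54 ± 0.25 with doxycycline, 8.39 ± 0.61 with dTAG-13 and 8.54 ± 0.77 with both (SD, n = 3). Birc3 stood at 19.4 ± 0.89, 22.3 ± 1.6, 24.3 ± 1.2 and 23.7 ± 0.64 CPM in the same order. Relb had its highest level, 36.3 ± 1.6 CPM, with doxycycline alone, and the other 3 groups lay from 30.6 to 32.1 CPM. The calls of Birc3 and Relb were lost with DESeq2 (adjusted p 0.0712 and 0.0888) and after the length and GC correction (0.0621 and 0.0622), that of Relb also with RLE size factors in edgeR (0.0531), and the number of called members was 1 without the first control, the first or the third combined, or the second dTAG13 library. Relb alone also lost its call without the third control, the second or the third doxycycline or the third dTAG13 library (-0.21 to -0.17), and Birc3 without the second control or the first doxycycline library (-0.23 and -0.20). Nfkbie was called under each of these settings.

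Against control, the combined group had 2 members higher (Nfkbie 0.50 and Birc3 0.29) and 3 lower (Nfkb1 -0.47, Nfkb2 -0.57 and Rela -0.46), beside 66.3% of all genes, 32.5% higher and 33.8% lower. The edgeR adjusted p-values ran from 3.91e-23 for Nfkb2 to 8.73e-05 for Birc3. Nfkb1 was -0.28 after the length and GC correction. Nfkbia, at -0.05 (95% interval -0.13 to 0.03), was called lower after the length and GC correction (-0.21, adjusted p 7.29e-06). Rel, at -0.24 (-0.53 to 0.05), was called lower without the first control library (-0.40, adjusted p 0.0162). This comparison shares its controls with those of dTAG-13 and of doxycycline against control.

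The 5 subunit genes were also summed per length, to describe the makeup of the subunit transcripts. The sum was 216, 215 and 212 RPKM in control, 204, 207 and 204 with doxycycline, 160.2, 163 and 161 with dTAG-13, and 154, 154 and 151 with both. No group overlapped another. Nfkb2 made up 51.3 ± 0.71% of the sum in control, 49.4 ± 0.78% with doxycycline, 49.4 ± 1.2% with dTAG-13 and 48.5 ± 0.30% with both (SD, n = 3). Rela held 23.5 to 23.9% and Nfkb1 18.1 to 18.9% as group means, and Rel held 0.22 to 0.35% in single libraries. The share of Relb, unlike its level, went the other way from the sum. It was 6.53, 7.00 and 6.79% in control and 7.79, 8.33 and 7.89% with doxycycline. With dTAG-13 it was 8.14, 9.02 and 8.98%, and with both 8.98, 9.18 and 9.00%. The mean level of Relb itself was 14.5 RPKM in control, 16.4 with doxycycline, 14.1 with dTAG-13 and 13.85 with both. Its share thus also depends on the levels of the other subunit genes in the sum. The Relb shares of the control libraries were below those of all other libraries.

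**Figure D4:**
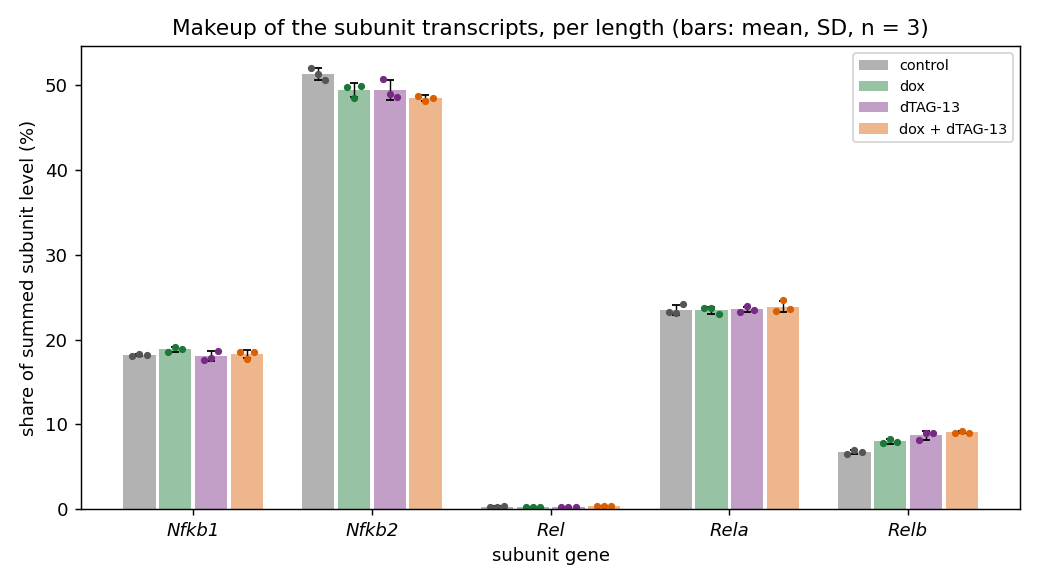
Share of each subunit gene in the summed level of the 5 subunit genes (%, y axis, from 0; levels per length), by gene on the x axis and group by colour; bars are means, error bars SD and points the 3 libraries. Nfkb2 holds 48.5 to 51.3% in the group means, and Relb goes from 6.78% in control to 9.05% with both compounds.

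Ratios of reads within a library do not depend on scaling, but they are not corrected for transcript length and GC content. Those to Rela were picked after values had been seen and carry no test. With that correction, dTAG-13 against control gave log2 fold changes of -0.11 for Nfkbia and -0.29 for Rela. Without it these were 0.00 and -0.40, which lie further apart. There were 0.512 ± 0.028 Nfkbia reads per Rela read in control, 0.480 ± 0.011 with doxycycline, 0.677 ± 0.035 with dTAG-13 and 0.680 ± 0.039 with both (SD, n = 3). The groups with dTAG-13 did not overlap those without. For Birc3 the ratio was 0.142 ± 0.0042, 0.171 ± 0.013, 0.235 ± 0.0085 and 0.239 ± 0.0045 in the same order. By contrast, the ratio of Nfkb1 to Rela reads was 1.16 to 1.22 in the 4 group means, with a library range of 1.09 to 1.24.

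Over the 12 libraries, which come from 4 cultures, log2 CPM of Nfkb1, Nfkb2 and Rela had pairwise Pearson correlations of 0.970 to 0.979, given as a description. The gene outside the members with the most similar pattern, among 10075 candidates, was Rab11fip3 for Nfkb1 (r = 0.996), Fkbp10 for Nfkb2 (0.998), Tmem184b for Rela (0.997), Relb's was Fam160a1 (0.954), Birc3's was Cntnap1 (0.965) and Nfkbie's was Krit1 (0.948). For the scarcer or steadier members the highest values were lower, 0.904 for Rel (Slc25a13) and for Nfkbia (Arglu1), and 0.888 for Tnfaip3 (Zfp523). With library size scaling only, the value of Slc25a13 for Rel was 0.568. With so many candidates and 4 cultures, high values are readily found.

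The wider pathway was described with 6 lists of 89 genes, of which 68 passed the filter on low counts. With dTAG-13 against control 17 were called higher and 24 lower, 25.0% and 35.3% of those tested beside 30.0% and 32.1% of all genes, with a median log2 fold change of -0.04. With library size scaling only the split was 24 higher and 15 lower (35.3% and 22.1%, beside 40.7% and 24.1% of all genes). With dTAG-13 in doxycycline-treated cells 14 were higher and 33 lower (20.6% and 48.5%, beside 30.7% and 33.4% of all genes), with a median of -0.10. After the length and GC correction these were 12 and 22 (17.6% and 32.4%, beside 24.4% and 28.7% of all genes). With doxycycline against control 22 were higher and 10 lower (32.4% and 14.7%, beside 14.8% and 18.7% of all genes), with a median of 0.04.

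Ligands were nearly absent. Only Tnfsf12, the gene of the ligand TWEAK, of 9 ligand genes passed the filter, and it was not called in these 3 comparisons. Il1b and Tnfsf11 had no read in any library, and Tnf had at most 1. Among 22 tested receptor and adaptor genes, 6 were higher and 7 lower with dTAG-13, 6 and 9 with dTAG-13 on top of doxycycline, and 7 and 3 with doxycycline. These are 27.3% and 31.8%, 27.3% and 40.9%, and 31.8% and 13.6% of those tested. Over all genes the shares were 30.0% and 32.1%, 30.7% and 33.4%, and 14.8% and 18.7%. Traf3, an adaptor that keeps the non-canonical pathway inactive, had 82.0, 78.7 and 82.0 CPM in control and 49.4, 49.8 and 50.6 CPM with dTAG-13, with no overlap. It fell by 0.70 ± 0.036 on the log2 scale (edgeR adjusted p 4.72e-20), and by 0.34 after the length and GC correction; the median of its length eighth was -0.29. With doxycycline present the fall was 0.77 ± 0.037 (adjusted p 4.31e-21), or 0.35 after the correction.

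Tlr4, the receptor of bacterial lipopolysaccharide, had 5.15, 5.44 and 5.08 CPM in control and 9.32, 9.07 and 9.54 CPM with dTAG-13. It rose by 0.83 ± 0.099 (edgeR adjusted p 1.46e-09), and with doxycycline, at 6.22, 7.77 and 6.46 CPM, by 0.38 ± 0.10 (adjusted p 0.00357), a call lost without the second doxycycline library (0.29). Tnfrsf1b, a receptor of tumour necrosis factor, rose with doxycycline from 19.4, 19.9 and 21.5 CPM to 32.7, 32.5 and 31.1 CPM, by 0.66 ± 0.058 (adjusted p 2.98e-12). Tlr2, a receptor of bacterial lipoproteins at 0.893 ± 0.13 CPM with doxycycline and 1.39 ± 0.60 CPM with both compounds (SD, n = 3), was called higher (0.63, adjusted p 0.0446), but the call was lost with DESeq2 (adjusted p 0.0702) and without any 1 of 7 libraries. These were the second control, each doxycycline, the second combined and the first or second dTAG13 library, with values from 0.22 without the second combined library to 0.72.

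Of 11 kinase-complex genes, 4 were higher and 4 lower with dTAG-13, 1 and 6 with dTAG-13 on top of doxycycline, and 4 and 0 with doxycycline. As shares these were 36.4% and 36.4%, 9.09% and 54.5%, and 36.4% and 0.0%. Beside them stood 30.0% and 32.1%, 30.7% and 33.4%, and 14.8% and 18.7% of all genes. Map3k14 encodes NIK, the kinase that starts the non-canonical pathway. It had 34.4, 34.5 and 36.6 CPM in control, 41.1, 40.5 and 40.5 with doxycycline, 25.2, 27.7 and 28.8 with dTAG-13, and 32.1, 31.8 and 30.2 with both. It rose with doxycycline (0.21 ± 0.049, edgeR adjusted p 0.000644) and fell with dTAG-13 in control cells (-0.37 ± 0.051, adjusted p 3.77e-08) and induced cells (-0.38 ± 0.050, adjusted p 1.58e-08). The length and GC correction brought the last 2 to -0.12 (adjusted p 0.0389) and -0.08 (adjusted p 0.163, not called). Ikbkg, the scaffold of the IkappaB kinase complex, rose with doxycycline by 0.19 ± 0.044 (adjusted p 0.000668), from 50.0 ± 2.2 to 57.1 ± 2.1 CPM. Ikbke, a related kinase, rose with dTAG-13 (0.38 ± 0.13, adjusted p 0.0131), a call lost without the third control library (0.29). Tab3, an adaptor of the TAK1 kinase, fell with dTAG-13 in induced cells (-0.42 ± 0.052, adjusted p 2.16e-09), or by 0.26 after the correction.

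The list of ubiquitin ligases and deubiquitinases held 12 genes, some of which, such as Tnip1 and Tnip2, encode binding partners and not such enzymes. Of the 12 genes, 2 were higher and 7 lower in each dTAG-13 comparison, and 2 and 2 with doxycycline. The shares were 16.7% and 58.3% in each dTAG-13 comparison, beside 30.0% and 32.1%, and 30.7% and 33.4%, of all genes. With doxycycline they were 16.7% and 16.7%, beside 14.8% and 18.7%. Birc2 encodes cIAP1, the close relative of Birc3, and had 18.2, 17.4 and 17.1 CPM in control, 20.4, 21.2 and 19.6 with doxycycline, 24.1, 23.7 and 23.7 with dTAG-13, and 27.8, 26.1 and 27.2 with both. No group overlapped another. It rose with dTAG-13 by 0.44 ± 0.058 in control cells (edgeR adjusted p 1.67e-08) and by 0.41 ± 0.057 in induced cells (adjusted p 4.84e-08), and with doxycycline by 0.21 ± 0.059 (adjusted p 0.00421). Unlike Birc3, its interaction did not pass (-0.03, adjusted p 0.843); the difference between both genes was not tested. Tnip1, which binds A20, fell with dTAG-13 by 0.42 ± 0.064 (adjusted p 3.44e-07), and Tnip2, its relative, rose in induced cells by 0.40 ± 0.080 (adjusted p 2.91e-05). Cyld, a deubiquitinase that limits the pathway, rose with doxycycline by 0.23 ± 0.034 (adjusted p 7.65e-07).

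**Figure D5:**
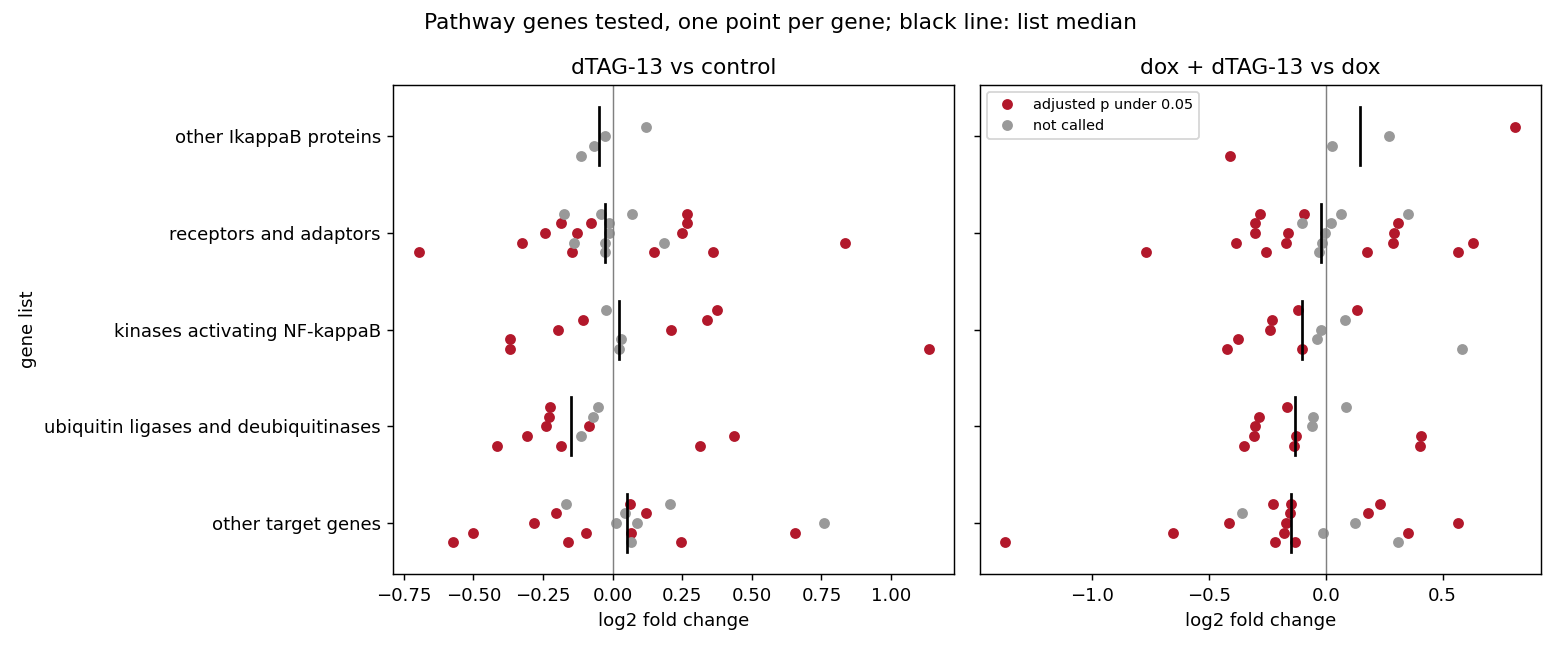
Log2 fold change (x axis) of the tested genes of 5 pathway lists (y axis), 1 point per gene, for dTAG-13 (base control) and for both compounds (base doxycycline); coloured points passed the test and the black line is the list's median. The ubiquitin ligase and deubiquitinase list has its median at -0.15 and -0.13, and the other target genes have theirs at 0.05 and -0.15. Points of every list drawn lie on both sides of 0.

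All 4 other IkappaB-family genes were tested. With dTAG-13, 0 were called by edgeR, beside 62.1% of all genes, and 0 by DESeq2, and 1, Nfkbiz, had an unadjusted edgeR p under 0.05 (0.0467). Nfkbiz, at 0.12 on the log2 scale, was called higher by edgeR after the length and GC correction (0.24, adjusted p 0.000539) and with library size scaling only (0.21, adjusted p 0.00175). With doxycycline and with dTAG-13 on top of it 1 was higher and 1 lower, beside 14.8% and 18.7%, and 30.7% and 33.4%, of all genes. Nfkbiz encodes a nuclear IkappaB protein that takes part in secondary target activation. It had 19.1, 19.0 and 19.2 CPM in control, 15.7, 14.5 and 15.5 with doxycycline, 20.1, 21.0 and 21.2 with dTAG-13, and 25.8, 27.2 and 27.2 with both. It fell with doxycycline by 0.32 ± 0.061 (edgeR adjusted p 5.19e-05) and rose with dTAG-13 in induced cells by 0.81 ± 0.060 (adjusted p 2.83e-15). Bcl3, a nuclear partner of p50 and p52, rose with doxycycline by 0.93 ± 0.18, from 1.64 ± 0.44 to 3.12 ± 0.18 CPM (SD, n = 3, adjusted p 0.000104). Its lower value with both compounds than with doxycycline (-0.41, adjusted p 0.0416) was not called with DESeq2, with library size scaling, after the length and GC correction (-0.37), or without the first or second doxycycline (-0.38 and -0.43) or the second or the third combined library (-0.41 and -0.31).

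Of 30 further target genes 18 were tested, and 5 were higher and 6 lower with dTAG-13, 4 and 10 with dTAG-13 on top of doxycycline, and 8 and 4 with doxycycline. In percent this was 27.8 and 33.3, 22.2 and 55.6, and 44.4 and 22.2 of those tested. For all genes it was 30.0 and 32.1, 30.7 and 33.4, and 14.8 and 18.7. Nos2, the inducible nitric oxide synthase, had 5.90, 6.73 and 7.84 CPM in control and 19.3, 22.2 and 21.3 CPM with doxycycline, with no overlap. It rose by 1.62 ± 0.088 on the log2 scale (edgeR adjusted p 2.1e-18), and with dTAG-13 in induced cells, at 7.58, 8.61 and 8.01 CPM, it fell by 1.37 ± 0.088 (adjusted p 3.69e-17). Cxcl1, a neutrophil chemokine, had 3.33, 3.83 and 3.73 CPM in control, 7.12, 7.50 and 6.35 with doxycycline, 5.62, 5.47 and 6.06 with dTAG-13, and 10.8, 10.9 and 9.54 with both. It rose with doxycycline by 0.95 ± 0.11 (adjusted p 8.82e-09) and with dTAG-13 by 0.66 ± 0.12 (adjusted p 5.03e-06), or 0.28 after the length and GC correction. Nfatc1, a transcription factor of the NFAT family, fell with dTAG-13 by 0.57 ± 0.057 (adjusted p 1.85e-11) and by 0.65 ± 0.058 in induced cells (adjusted p 5.9e-13), or by 0.34 and 0.38 after the correction. Many textbook targets, among them Il6, Cxcl2, Csf2 and Sele, had at most 2 reads in any library.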

How the data were processed

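The files the authors deposited hold raw read counts per gene, not normalized, for 12 libraries, and each column was matched to 1 library. Per the labels' protocols, poly(A) RNA was taken with oligo(dT) beads for the NEBNext Ultra II kit. Per the submitters' processing notes, bcl2fastq 2.17 and featureCounts were used with mm10; per the file headers, Subread was used. Aligner settings, annotation and strand handling were not given in the sources used here, so values of overlapping genes are uncertain.

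Genes were matched by Entrez ID to RefSeq GRCm38.p6 (25275 of 27179 IDs). In edgeR 4.0.16 (R 4.3.3), filterByExpr left 12910 genes, counts were scaled by TMM, and the model had 1 mean per group over all 12 libraries. The robust quasi-likelihood test was two-sided, with Benjamini-Hochberg adjustment over all genes tested for each of 6 contrasts. The code was tested on simulated data. CPM use the TMM-scaled library size. RPKM divide them by the longest GENCODE M21 transcript that is paired with RefSeq. Alternatives were RLE factors, library size only, DESeq2 1.42.0, other filters, only the groups compared, a replicate block, an offset for transcript length and GC (per-library splines, 5 degrees of freedom, 11745 genes), and leaving out each library. Tables and figures used Python 3.11.15, pandas 2.3.3, numpy 2.4.6, scipy 1.17.1 and matplotlib 3.10.9.

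The members, lists and alternatives were chosen with earlier results of these data known. Genes named were the 10 members; for each list and each of 3 contrasts (doxycycline against control, dTAG-13 against control, combined against doxycycline) the 2 called genes with the largest absolute log2 fold change and a mean of at least 1 CPM; and the gene most like each member. Other genes were named after their values were seen. Same-numbered libraries of different groups had correlated deviations of r -0.0208 to 0.0801 in 18 pairs, against -0.0605 to 0.0657 in 36 other pairs; none was over 0.1, so the numbers were not taken as pairs. Libraries of a group differed by more than sampling noise in all 12 pairs (chi-square per degree of freedom 2.40 to 8.65), so none was counted as a duplicate. The gene most similar to Icam1 is not reported here.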

Additional observations from a re-analysis of the deposited data

Results flagged for a closer look

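In 9 named genes the dTAG-13 difference with doxycycline differed from that without it, by edgeR's test of the difference itself (log2, with minus without). Of the 10 members 3 passed this test, beside 22.9% of all genes tested. Genes outside the members were named for large differences, so their number is no share of the pathway. For the members the values were -0.48 for Nfkbie, -0.25 for Birc3 and -0.20 for Relb, and the cause was not tested. Birc3 and Relb were no longer called by edgeR after the length and GC correction (adjusted p 0.0621 and 0.0622).

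Among the other pathway genes the values were -1.21 for Nos2 (adjusted p 1.2e-08), -0.55 for Tlr4 (adjusted p 0.00368), -0.24 for Tnfrsf1b (adjusted p 0.0311), -0.21 for Ikbkg (adjusted p 0.013) and -0.20 for Cyld (adjusted p 0.00249). Nfkbiz had a positive value, 0.69 (adjusted p 4.75e-08). After the length and GC correction the adjusted p-values of Ikbkg and Cyld were 0.177 and 0.106, and that of Tnfrsf1b was 0.0493.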

How the results depend on the processing

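The 10 members gave 1241 alternative values over the 6 comparisons; 1120 kept direction and call, 78 changed sign, and of those that kept their sign 33 lost and 10 gained a call. Of the values that changed sign, Nfkbia lost its call in combined against doxycycline (adjusted p 0.16 with the length and GC correction and 0.179 with the block added) and gained one in dTAG-13 against control (0.00836 and 0.00921). The members called rose from 1 to 3 in combined against dTAG13 with scaling by library size only. In the interaction they fell from 3 to 1 with DESeq2 and with the length and GC correction, were 2 with RLE factors and with the correction and block together, rose to 4 with library size only, and ranged from 1 to 3 without single libraries. For none of these was the cause tested. With the replicate number as a block, 5, 7, 5, 1, 5 and 3 members were called, as without it. No member's call changed under the block alone. In the main fit the numbers were not taken as pairs. Scaling by library size only shifted the median of all genes in dTAG-13 against control by 0.09. Icam1 gave no value under a filter of 1 CPM, and depth limits it, Rel and Tnfaip3.

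The values that changed sign follow. In doxycycline against control, Nfkb1 was 0.027 with library size only, 0.001 with no filter and 0.004 with only the groups compared; without single libraries Nfkb1 ranged from -0.021 to 0.018, Rel from -0.198 to 0.118 and Icam1 from -0.395 to 0.471. In dTAG-13 against control, Relb was 0.048 with library size only, 0.028 with the length and GC correction and 0.027 with the block added; Nfkbia was -0.111 with either correction and -0.001 with only the groups compared; without single libraries they ranged from -0.085 to 0.005 and from -0.037 to 0.016. In combined against doxycycline, Rel was 0.035 and Nfkbia -0.063 with the correction, and 0.024 and -0.061 with the block added. There Nfkbie was 0.009 with RLE and with DESeq2, 0.019 with library size only, 0.0 with no filter, 0.008 at 1 CPM, 0.001 with the block, 0.042 with the correction, 0.045 with both and 0.01 with only the groups compared. Without single libraries Nfkbie ranged from -0.058 to 0.061 and Icam1 from -0.261 to 0.568. In combined against dTAG13, Nfkbie was -0.012 with library size only; without single libraries Nfkbie ranged from -0.032 to 0.088, Relb from -0.076 to 0.014 and Birc3 from -0.07 to 0.001. In combined against control, Relb was 0.012 and Tnfaip3 0.111 with the correction, and 0.011 and 0.108 with the block added; Nfkbia was 0.004 and Tnfaip3 0.002 with library size only; without single libraries Tnfaip3 ranged from -0.283 to 0.056 and Icam1 from -0.239 to 0.666. In the interaction, Nfkb2 was -0.059 and Rela -0.068 with library size only; Tnfaip3 was 0.005 with RLE and with DESeq2, 0.048 with the correction and 0.045 with the block added. Without single libraries Nfkb2 ranged from -0.003 to 0.035, Rela from -0.026 to 0.027 and Tnfaip3 from -0.231 to 0.14.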
